A study of Rattus norvegicus with 18 samples.

Results

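The genes described here encode insulin-like growth factor 1 (IGF1), the receptors IGF1R and INSR, the receptor substrates IRS1 and IRS2, and the IGF binding proteins IGFBP2 to IGFBP6. They were chosen by symbol: 10 symbols were listed and 9 are in the table of 13188 genes. The remaining gene, Igfbp3, was not analysed here. RNA-seq values came from 18 libraries of HO15.19 cells, a line of Rat1 rat fibroblasts labelled as lacking functional myc, in 6 groups of 3. All 6 groups therefore carry the myc−/− background and differ in 2 things, human MYC delivered by a viral vector and siRNA transfection. Cells labelled myc−/− and myc−/− + MYC were not transfected. The other 4 groups received 40 nM siRNA for 48 h. A control siRNA was given to myc−/− cells (labelled myc−/− siCtrl) and to cells with MYC (myc−/− + MYC siCtrl). Further cells with MYC received one of 2 siRNA sequences against the aryl hydrocarbon receptor (AHR), siAHR-2 or siAHR-5. Nothing in the labels says that the 3 libraries of a group came from separate cultures, so the p-values measure the spread between these libraries, which may be technical. All groups derive from 1 cell line, and the vector drives MYC outside its own promoter.

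IGF1 and IGF2 are secreted growth factors that bind the receptor tyrosine kinase IGF1R, a close relative of the insulin receptor. The activated receptors phosphorylate IRS proteins, which recruit PI3-kinase and switch on AKT, a route to growth, protein synthesis and survival. IGF binding proteins hold IGFs outside the cell and control how much ligand reaches the receptor. Fibroblasts use IGF1R signalling to progress through the cell cycle, and they release several of the binding proteins.

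The deposited log2 values lie on different scales in 2 sets of libraries, so groups were compared only within a set. The smaller set, of 6 libraries, pairs myc−/− + MYC with myc−/− siCtrl. The larger one, of 12, holds the other 4 groups. In each set the groups with and without MYC also differ in their transfection label, and the effects of MYC and transfection cannot be told apart. Rat Myc was still listed with signal in the libraries labelled myc−/− siCtrl (9.16 to 9.47) and myc−/− (10.82 to 10.94), higher than in the libraries with MYC (8.01 to 8.53), so its values do not check the myc−/− label. The human transgene was not analysed here. Ahr, the siRNA target, fell by 1.29 with siAHR-2 (limma adjusted p = 2.37e-04, standard error (SE) 0.0364) and fell by 1.39 with siAHR-5 (limma adjusted p = 2.16e-04, SE 0.0612). Of 11 fibroblast markers, Vim and Fn1 had values of at least 17.67 in every library. Col1a1, Col3a1, S100a4, Pdgfra, Pdgfrb and Thy1 had values of at least 11.34 in every library, whereas Col1a2 (3.64 to 4.13) and Lum (5.80 to 9.38) were low. Dcn was low in the set of 12 (mean 7.06) but not in the set of 6 (mean 11.44). Myc−/− replicate 2 stood apart in the set of 12. It deviated from the mean of its 2 partner libraries by at least 1.5-fold for 1.28% of 10716 genes, compared with at most 0.103% in the other 17 libraries. For the 9 genes, results that rest on it are given with and without it. Values of single other pathway genes are given with it only. The read depth of a library cannot be read from these values and is unknown.

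A gene was called when its fold was at least 1.5 in either direction (log2FC of 0.585) and its limma adjusted p was at most 0.01. Here log2FC is the difference of mean deposited log2 values. The words rose and fell are used only for genes past both cutoffs.

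Promoter sequences are shown for the gene with the largest log2FC with siAHR-2 (Irs1), for the 2 binding proteins of the 9 genes that passed the cutoffs (Igfbp5 and Igfbp6) and for the main receptor (Igf1r). They are the 250 bases before the RefSeq start in assembly GRCr8, which is not the build of the expression files (rn6). The windows are Igf1r at chr1:130959747-130959996 (plus strand), Irs1 at chr9:91053960-91054209 (minus strand), Igfbp5 at chr9:81914188-81914437 (minus strand) and Igfbp6 at chr7:135154669-135154918 (plus strand). Capitals mark matches, on either strand, to CACGTG (the canonical E-box bound by MYC with MAX) or to GCGTG (the core bound by AHR with its partner ARNT). No match to one motif overlaps a match to the other.
Igf1r: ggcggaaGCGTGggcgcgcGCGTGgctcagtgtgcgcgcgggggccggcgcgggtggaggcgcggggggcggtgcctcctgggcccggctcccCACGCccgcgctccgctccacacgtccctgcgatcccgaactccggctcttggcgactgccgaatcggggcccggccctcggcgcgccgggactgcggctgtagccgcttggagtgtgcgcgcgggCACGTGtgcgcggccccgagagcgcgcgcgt
Irs1: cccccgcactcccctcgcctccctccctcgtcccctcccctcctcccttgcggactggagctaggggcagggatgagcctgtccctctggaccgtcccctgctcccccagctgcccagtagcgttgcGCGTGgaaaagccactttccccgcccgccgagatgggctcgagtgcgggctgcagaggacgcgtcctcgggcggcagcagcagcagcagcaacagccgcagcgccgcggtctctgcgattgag
Igfbp5: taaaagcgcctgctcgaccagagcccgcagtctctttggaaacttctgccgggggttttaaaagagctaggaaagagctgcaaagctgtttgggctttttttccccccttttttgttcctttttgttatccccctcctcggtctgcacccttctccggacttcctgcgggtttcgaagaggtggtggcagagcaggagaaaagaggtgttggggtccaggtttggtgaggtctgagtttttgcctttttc
Igfbp6: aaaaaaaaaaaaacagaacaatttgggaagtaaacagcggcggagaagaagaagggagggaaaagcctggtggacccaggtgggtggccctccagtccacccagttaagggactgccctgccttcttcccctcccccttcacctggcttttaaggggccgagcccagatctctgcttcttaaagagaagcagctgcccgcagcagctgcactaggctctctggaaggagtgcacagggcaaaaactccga

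A promoter entry was found for 8 of the 9 genes, all but Irs2. CACGTG was present in Igf1r, 31 bases before the start, and in Igfbp2, 140 bases before it, compared with 5.59% of 33469 rat promoter windows of this length and 7.81% of the 9842 windows of genes in the expression table. GCGTG was present in Igf1r (3 matches), Igfbp2 (2), Insr (1) and Irs1 (1, 123 bases before the start), 4 of 8 windows, compared with 25.9% of all windows and 42.2% of those of genes in the expression table. Neither motif was in the windows of Igf1, Igfbp4, Igfbp5 or Igfbp6. A TATAAA sequence lay 40 bases before the start of Igfbp4, and 12.9% of all windows and 7.45% of those of genes in the expression table have one. A match describes these letters and is not evidence of binding. In the GRCr8 gene order Igfbp5 is the next protein-coding gene after Igfbp2.

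To ask which parts of the IGF axis differ between cells with and without MYC, myc−/− + MYC was first compared with myc−/− siCtrl in the set of 6. Here 3 of 9 genes passed the cutoffs (26.8% of all genes did, 12.5% higher and 14.3% lower). Igfbp6 rose, while Irs2 and Igfbp5 fell. The groups did not overlap for 7 of the 9 genes (78.8% of all genes), and 7 had a limma adjusted p below 0.05 (76.2%). The median log2FC of the 9 genes was −0.32, beside −0.0038 for all genes. For the same question in the set of 12, myc−/− + MYC siCtrl was compared with myc−/−. There 2 of 9 genes passed (25.5% of all genes did, 10.8% higher and 14.7% lower), and both, Irs2 and Igfbp5, fell. Separate groups were found for 7 genes (70.5% of all genes), and a limma adjusted p below 0.05 for 6 (64.7%). Among those 7, Igfbp2 was barely separate, from 3.8552 up in myc−/− and up to 3.8544 in myc−/− + MYC siCtrl. The median of the 9 was −0.30, beside −0.00014 for all genes. The shares called are near those of all genes.

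**Figure D1:**
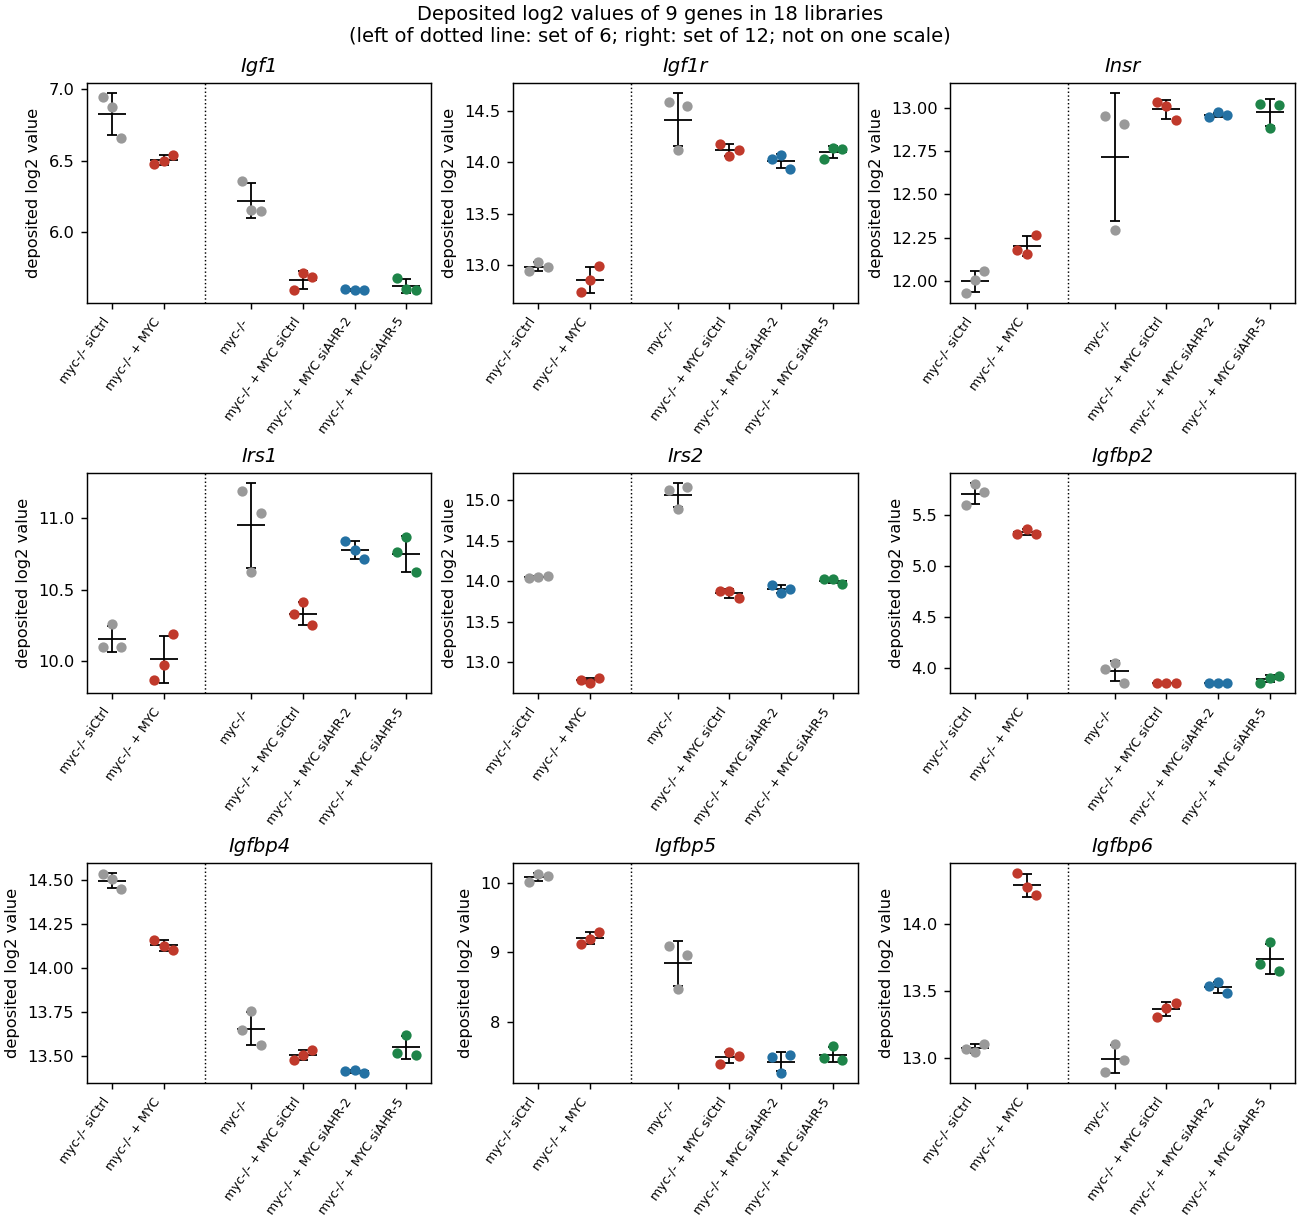
Deposited log2 value (vertical axes) of each of the 9 genes in the 18 libraries; points are libraries, bars the mean ± SD of the 3 libraries of a group, and the dotted line divides the set of 6 from the set of 12, which are not on one scale. Irs2 and Igfbp5 lie lower with MYC in both sets, Igfbp6 lies higher, and Irs1 lies higher with either siRNA against AHR than with siCtrl.

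Among the receptor substrates, IRS2 is an adaptor that couples insulin and IGF receptors to PI3-kinase. Irs2 read 14.04, 14.05 and 14.06 in myc−/− siCtrl and 12.78, 12.75 and 12.81 in myc−/− + MYC. With the set of 12, readings were 15.13, 14.89 and 15.17 in myc−/− and 13.88, 13.88 and 13.79 in myc−/− + MYC siCtrl. The groups did not overlap in either set, and each group varied far less than the distance between them. On the log2 scale Irs2 fell by 1.27 in the first of these comparisons (limma adjusted p = 1.46e-11, SE 0.0292), 2.41-fold. In the second it fell by 1.21 (limma adjusted p = 3.76e-05, SE 0.0778), 2.32-fold. Of all genes, 7.59% and 7.89% changed more in the respective sets. The difference between these effects was 0.06 (95% interval −0.11 to 0.23, limma adjusted p = 0.566).

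IRS1 does the same work for these receptors and is the more widely used substrate in many cells. Irs1 read 10.10, 10.26 and 10.10 in myc−/− siCtrl and 9.87, 9.98 and 10.19 in myc−/− + MYC. These groups overlapped, with a log2FC of −0.14 (95% interval −0.32 to 0.04, limma adjusted p = 0.130). It was −0.23 without myc−/− + MYC replicate 3 (limma adjusted p = 0.0125) and −0.07 without replicate 1 (0.404). Quantile normalization gave −0.20 (limma adjusted p = 0.0490) and median centring −0.18 (0.0497), both below the fold cutoff. With the set of 12, readings were 11.19, 10.62 and 11.04 in myc−/− and 10.33, 10.41 and 10.25 in myc−/− + MYC siCtrl. The groups did not overlap, but replicate 2 of myc−/− lay well below its partners. The log2FC was −0.62 (limma adjusted p = 0.0122, SE 0.151), which missed the p cutoff. Without myc−/− replicate 2 it was −0.78 (limma adjusted p = 4.98e-04, SE 0.0744), past both cutoffs. The call for Irs1 in the set of 12 thus changes with 1 library.

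Neither receptor passed the cutoffs with MYC. IGF1R is the signalling receptor for both IGFs. Igf1r read 12.94, 13.03 and 12.98 in myc−/− siCtrl and 12.73, 12.85 and 12.99 in myc−/− + MYC, with overlap (log2FC −0.13, 95% interval −0.25 to −0.0048, limma adjusted p = 0.0561). It was −0.19 without myc−/− + MYC replicate 3 (limma adjusted p = 0.00327) and −0.07 without replicate 1 (0.188), both below the fold cutoff. The scalings split, with −0.05 after quantile normalization (limma adjusted p = 0.456) and −0.17 after median centring (0.0143). With the set of 12, readings were 14.59, 14.12 and 14.55 in myc−/− and 14.18, 14.07 and 14.12 in myc−/− + MYC siCtrl. Only replicate 2 of myc−/− lay within the range of the MYC group. The log2FC was −0.30 (95% interval −0.61 to 0.02, limma adjusted p = 0.0912), and −0.44 without that library (limma adjusted p = 3.80e-04, SE 0.0393), below the fold cutoff. It was −0.19 after quantile normalization (limma adjusted p = 0.139) and −0.25 after median centring (0.0578).

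INSR, the insulin receptor, can also pair with IGF1R in hybrid receptors. Insr read from 11.93 to 12.05 in myc−/− siCtrl and 12.18, 12.16 and 12.27 in myc−/− + MYC. The groups did not overlap and the log2FC was 0.20 (limma adjusted p = 0.00128, SE 0.0435), below the fold cutoff. In the set of 12 it read 12.95, 12.29 and 12.91 in myc−/− and 13.04, 13.01 and 12.93 in myc−/− + MYC siCtrl. Its log2FC there of 0.28 (95% interval −0.17 to 0.72, limma adjusted p = 0.231) became 0.06 without myc−/− replicate 2 (limma adjusted p = 0.233), so that most of it came from that library.

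Igf1, the ligand, read 6.95, 6.87 and 6.66 in myc−/− siCtrl and 6.48, 6.50 and 6.54 in myc−/− + MYC. All MYC libraries lay below all of the others, with a log2FC of −0.32 (limma adjusted p = 0.00194, SE 0.0733). In the set of 12 it read 6.36, 6.15 and 6.15 in myc−/− and 5.60, 5.71 and 5.69 in myc−/− + MYC siCtrl, again without overlap. The log2FC of −0.56 (limma adjusted p = 7.10e-04, SE 0.0700) lay just below the fold cutoff. It passed without myc−/− replicate 2 (−0.59, limma adjusted p = 0.00174) and without myc−/− replicate 3 (−0.59, limma adjusted p = 0.00239).

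The binding proteins moved in both directions. IGFBP5 binds both IGFs and also attaches to extracellular matrix. Igfbp5 read 10.02, 10.13 and 10.09 in myc−/− siCtrl and 9.12, 9.20 and 9.30 in myc−/− + MYC. In the set of 12 it read 9.10, 8.47 and 8.96 in myc−/− and 7.40, 7.56 and 7.51 in myc−/− + MYC siCtrl. No library of one group reached the range of the other in either set. Between groups of the smaller set Igfbp5 fell by 0.88 (limma adjusted p = 1.36e-07, SE 0.0616), 1.84-fold. In the larger set it fell by 1.35 (limma adjusted p = 6.59e-04, SE 0.168), 2.55-fold, and by 1.54 without myc−/− replicate 2 (limma adjusted p = 6.02e-05). The effect in the larger set minus that in the smaller was −0.48 (limma adjusted p = 0.0275, SE 0.169), and −0.66 without that library (limma adjusted p = 3.77e-05), which is past both cutoffs. This difference was only −0.10 after quantile normalization (limma adjusted p = 0.616) and −0.39 after median centring (0.0516).

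IGFBP6 differs from its relatives in preferring IGF2 over IGF1. Igfbp6 read 13.07, 13.04 and 13.10 in myc−/− siCtrl and 14.38, 14.27 and 14.21 in myc−/− + MYC, and it rose by 1.21 (limma adjusted p = 3.04e-10, SE 0.0413), 2.32-fold. In the set of 12 it read 12.90, 13.10 and 12.98 in myc−/− and 13.31, 13.37 and 13.41 in myc−/− + MYC siCtrl. The groups were separate there too, but the log2FC was 0.37 (limma adjusted p = 0.00215, SE 0.0597), below the fold cutoff. The 2 effects differed by −0.84 (set of 12 minus set of 6, SE 0.0760, limma adjusted p = 2.53e-07). Igfbp6 was the single gene of the 9 to pass in this test of the difference (16.5% of all genes did). Without myc−/− replicate 2, Igfbp6 (−0.79), Igfbp5 and Irs1 (−0.64) passed. With all libraries the Irs1 difference was −0.48 (limma adjusted p = 0.0251), or −0.31 after quantile normalization (0.130).

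IGFBP4 is a soluble binding protein that is cut by the protease PAPPA. Igfbp4 read 14.53, 14.51 and 14.45 in myc−/− siCtrl and 14.16, 14.12 and 14.10 in myc−/− + MYC. The log2FC was −0.37 (limma adjusted p = 7.90e-07, SE 0.0316), with no overlap but below the fold cutoff. After quantile normalization it was −0.15 (limma adjusted p = 0.00209). In the set of 12 it read 13.64, 13.75 and 13.56 in myc−/− and 13.48, 13.51 and 13.53 in myc−/− + MYC siCtrl, with a log2FC of −0.15 (limma adjusted p = 0.0462, SE 0.0519), or −0.10 without myc−/− replicate 2 (0.0471) and −0.09 after quantile normalization (0.208). IGFBP2 is a binding protein of fetal tissues and many tumors. Igfbp2 had low values, 5.60, 5.80 and 5.73 in myc−/− siCtrl and 5.31, 5.36 and 5.31 in myc−/− + MYC (log2FC −0.38, SE 0.0557, limma adjusted p = 6.99e-05). In the set of 12 it read 3.99, 4.04 and 3.86 in myc−/− and 3.85 in all 3 libraries of myc−/− + MYC siCtrl. The MYC libraries thus sat at one shared low value, and the log2FC of −0.11 (limma adjusted p = 0.0925) is that of a gene near its lowest listed value. It was −0.07 without myc−/− replicate 2 (limma adjusted p = 0.203) and −0.16 without replicate 3 (0.00181), all below the fold cutoff. Median centring also gave −0.07 (0.219).

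**Figure D2:**
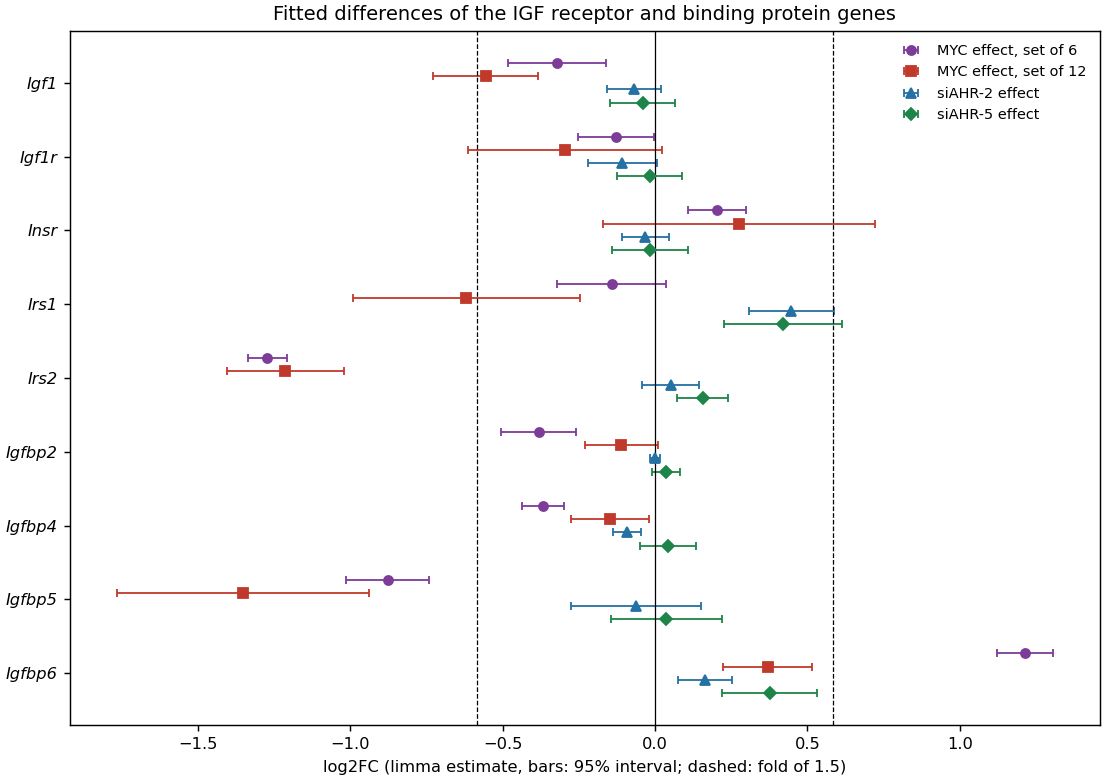
Fitted log2FC (horizontal axis) of the 9 genes in the MYC comparisons of both sets and in the 2 comparisons of siRNA against AHR with siCtrl; symbols are limma estimates from 3 libraries against 3, bars their 95% intervals, and dashed lines the fold of 1.5. Irs2 and Igfbp5 lie past the left line in both MYC comparisons, Igfbp6 lies past the right line in the set of 6, and the siRNA estimates all lie between the lines.

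Whether the IGF axis depends on AHR was asked by setting siAHR-2 and siAHR-5 beside siCtrl, all in cells with MYC. The 2 comparisons share their 3 siCtrl libraries, which also serve in the MYC comparison of the set of 12. With limma, 0 of 9 genes passed the cutoffs with siAHR-2 (0.47% of all genes did) and 0 of 9 with siAHR-5 (2.33% did). At an unadjusted p under 0.05 the count was 3 for each siRNA (40.4% of all genes with siAHR-2 and 47.8% with siAHR-5): Irs1, Igfbp4 and Igfbp6 with siAHR-2, and Irs1, Irs2 and Igfbp6 with siAHR-5. These same genes had a limma adjusted p below 0.05 (29.3% of all genes did with siAHR-2 and 39.2% with siAHR-5) and groups that did not overlap (43.3% and 50.5%). Between siAHR-5 and siAHR-2, 0 of 9 passed with limma (2.18% of all genes did), and 3 had an unadjusted p under 0.05 (46.8% of all genes did), Irs2, Igfbp4 and Igfbp6.

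Irs1 had the largest log2FC of the 9 genes in both comparisons, although with siAHR-5 it was below Igfbp6 after quantile normalization (0.33 against 0.39). It read 10.33, 10.41 and 10.25 with siCtrl, 10.84, 10.78 and 10.72 with siAHR-2, and 10.76, 10.87 and 10.62 with siAHR-5. Every library with siRNA against AHR lay above every siCtrl library. The log2FC was 0.45 with siAHR-2 (limma adjusted p = 0.00384, SE 0.0557), 1.36-fold, and 0.42 with siAHR-5 (limma adjusted p = 0.00936, SE 0.0778), 1.34-fold. Both met the p cutoff and missed the fold cutoff. The p cutoff was met narrowly: over fits that each lacked 1 library, the limma adjusted p ran from 0.00822 to 0.0212 with siAHR-2 and from 0.0111 to 0.0354 with siAHR-5, and with a replicate block it was 0.0177 and 0.00720. In these fits the log2FC stayed between 0.36 and 0.49. A larger change was found for 1.64% of all genes with siAHR-2 and for 6.57% with siAHR-5. Between the siRNAs the difference was −0.03 (95% interval −0.21 to 0.15, limma adjusted p = 0.831). In order of their means, the groups of the set of 12 ran from 10.33 ± 0.0808 with siCtrl through 10.75 ± 0.125 with siAHR-5 and 10.78 ± 0.0621 with siAHR-2 to 10.95 ± 0.296 in myc−/− (SD, n = 3 each). The upper 3 groups overlapped one another. Without myc−/− replicate 2 (10.62), the other myc−/− libraries (11.19 and 11.04) lay above every library with siAHR-2 or siAHR-5.

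Igfbp6 read 13.31, 13.37 and 13.41 with siCtrl, 13.53, 13.56 and 13.48 with siAHR-2, and 13.70, 13.87 and 13.65 with siAHR-5. These 3 groups and myc−/− did not overlap one another, with myc−/− lowest and siAHR-5 highest. The log2FC was 0.16 with siAHR-2 (limma adjusted p = 0.0221, SE 0.0352) and 0.38 with siAHR-5 (limma adjusted p = 0.00662, SE 0.0627), both below the fold cutoff. It was 0.21 higher with siAHR-5 than with siAHR-2 (limma adjusted p = 0.0380, SE 0.0602). With either siRNA, Igfbp6 thus lay further from the myc−/− libraries than with siCtrl, whereas Irs1 lay nearer to them.

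Irs2 read 13.95, 13.85 and 13.90 with siAHR-2, and 14.03, 14.02 and 13.97 with siAHR-5. The siAHR-2 libraries overlapped those with siCtrl (log2FC 0.05, 95% interval −0.04 to 0.15), while the siAHR-5 libraries lay above them (log2FC 0.16, SE 0.0340, limma adjusted p = 0.0165). Igfbp4 read 13.41, 13.42 and 13.40 with siAHR-2, below siCtrl (log2FC −0.09, SE 0.0181, limma adjusted p = 0.0160), and 13.52, 13.62 and 13.51 with siAHR-5, which overlapped siCtrl (log2FC 0.04). These differences are at most 1.11-fold. Both genes were higher with siAHR-5 than with siAHR-2, Irs2 by 0.10 (limma adjusted p = 0.0478) and Igfbp4 by 0.14 (limma adjusted p = 0.0257). After median centring Irs2 had 0.096 with siAHR-5 against siCtrl (limma adjusted p = 0.0458) and 0.075 between the siRNAs (0.0859). The receptors and the ligand overlapped siCtrl with both siRNAs. Igf1r read 14.04, 14.07 and 13.94 with siAHR-2 and 14.04, 14.14 and 14.14 with siAHR-5. Igf1r had log2FC of −0.11 (95% interval −0.22 to 0.01) and −0.02 (−0.12 to 0.09), Insr of −0.03 (−0.11 to 0.05) and −0.02 (−0.14 to 0.11), and Igf1 of −0.07 (−0.16 to 0.02) and −0.04 (−0.15 to 0.07). With siAHR-2, Igf1r had −0.14 after median centring (limma adjusted p = 0.0312) and −0.07 after quantile normalization (0.263). Igfbp5 read 7.49, 7.27 and 7.53 with siAHR-2 and 7.49, 7.65 and 7.45 with siAHR-5, around the siCtrl values. Its log2FC were −0.06 (−0.28 to 0.15) and 0.04 (−0.14 to 0.22). On the scale of the deposited values, which may shrink changes of low genes, these intervals stay within the fold cutoff. Igfbp2 stayed between 3.85 and 3.92 with either siRNA.

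**Figure D3:**
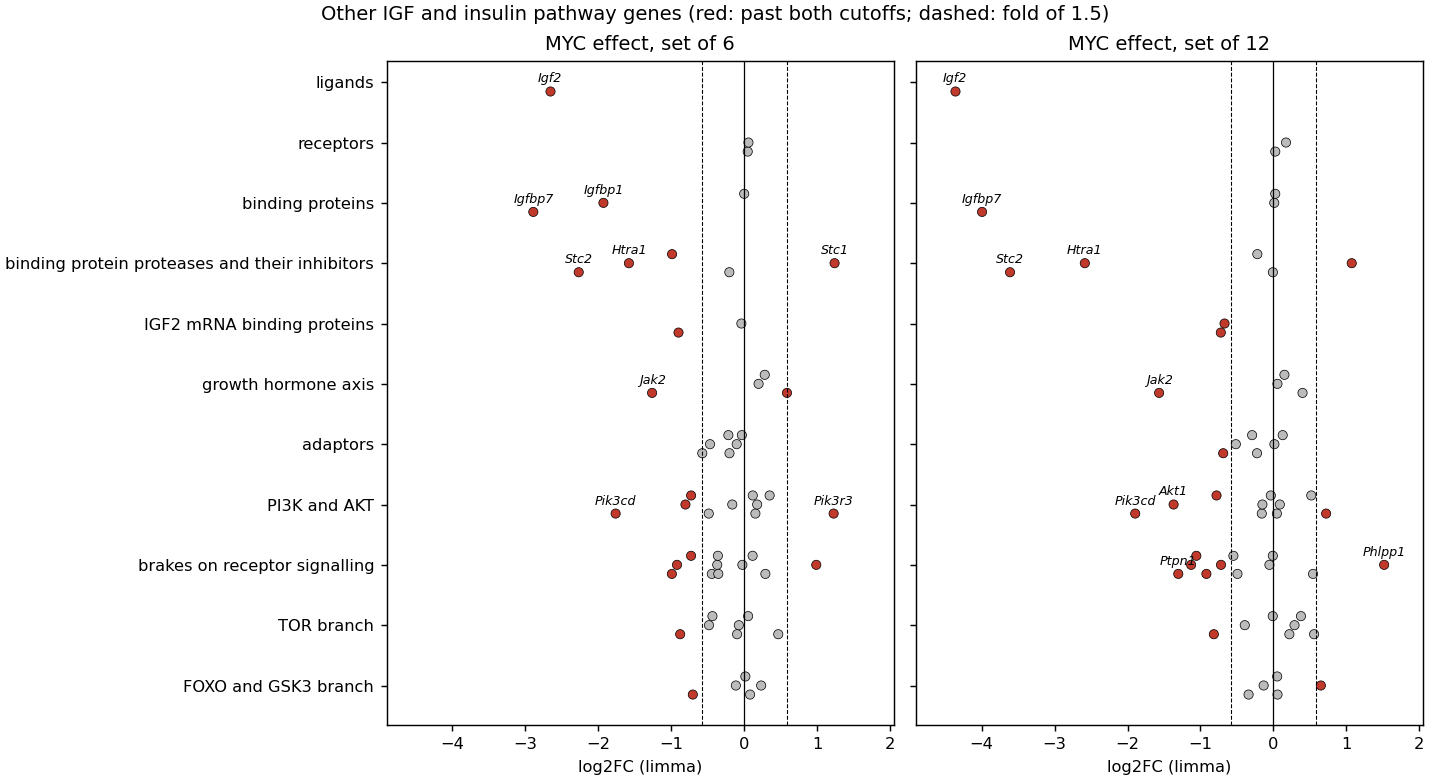
Fitted log2FC (horizontal axes) of 56 other genes of the IGF and insulin pathway by role, with MYC in the set of 6 (left) and the set of 12 (right); each point is a gene, red where it passed both cutoffs. Igf2, Igfbp7, Stc2 and Htra1 lie far to the left in both panels, and most adaptors, receptors and TOR branch genes lie between the dashed lines.

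The same comparisons were read for 56 measured genes of 63 others listed for the pathway. With MYC, 20 passed in the set of 6, 4 higher and 16 lower (12.5% and 14.3% of all genes), and 21 passed in the set of 12, 4 higher and 17 lower (10.8% and 14.7%). After quantile normalization the set of 12 gave 6 higher and 16 lower, and after median centring 6 and 17. The median log2FC was −0.18 and −0.09, or −0.129 and −0.0549 after quantile normalization. In both sets 12 of the 56 genes fell and 3 rose (8.91% and 6.87% of all genes did), and 0 passed in opposite directions (0.341%). Igf2, the second IGF ligand, fell by 2.66 with the smaller set (limma adjusted p = 1.56e-10, SE 0.0836) and fell by 4.37 with the larger one (limma adjusted p = 4.59e-07, SE 0.0861). Igf2 is the ligand that IGFBP6 prefers, and the binding protein and the ligand moved in opposite directions in the set of 6. The receptors Igf2r, which clears IGF2, and Insrr did not pass in either set.

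Further binding proteins, and the factors that process them, were read next. In what follows, paired log2FC values are those of the set of 6 and then the set of 12. Igfbp7, a distant relative with weak IGF binding, fell (−2.89 and −3.99). Igfbp1, a binding protein best known from liver, fell in the set of 6 only (−1.93 and 0.02, test of the difference with limma adjusted p = 7.09e-12). Of 5 proteases and protease inhibitors, 4 passed in the smaller set (1 higher) and 3 in the larger (1 higher). Stc2, a stanniocalcin that blocks PAPPA, fell (−2.27 and −3.61), and so did Htra1, a serine protease that cuts IGFBPs (−1.58 and −2.58). The gene that rose was Stc1, the related stanniocalcin (1.24 and 1.07), and the protease gene Pappa fell in the smaller set (−0.99 and −0.01). Both were named after their values were seen. Of the 2 measured IGF2 mRNA binding proteins, Igf2bp2 fell (−0.90 and −0.67), although the second value was −0.56, under the fold cutoff, after quantile normalization. Igf2bp1 fell in the set of 12 (−0.72) and had a log2FC of −0.04 in the other set.

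Inside the cell the calls were mixed. Of 10 PI3K and AKT genes, 4 passed in each set. Pik3cd, a catalytic subunit, fell (−1.76 and −1.89), and the kinase gene Akt1 fell (−0.81 and −1.37). Pik3r1 also fell (−0.73 and −0.78), while Pik3r3, a regulatory subunit, rose (1.22 and 0.72). Of 11 brakes on the pathway, 4 passed in the set of 6 (1 higher) and 6 in the set of 12 (1 higher). Ptpn1, which dephosphorylates the insulin receptor, fell (−0.92 and −1.30). Phlpp1, an AKT phosphatase, rose (0.99 and 1.52). Socs1, another brake, had 0.29 and 0.54 and passed in the set of 12 after quantile normalization (0.64) or median centring (0.59). Jak2, the kinase of the growth hormone receptor, fell (−1.26 and −1.57). Stat5a, a factor it activates, rose in the set of 6 (0.59, or 0.54 and below the fold cutoff after median centring) and had 0.40 in the set of 12. Rheb, which activates mTOR, fell (−0.88 and −0.82) and was the 1 gene of 7 in the TOR branch past the cutoffs. Rps6kb1, the S6 kinase, had 0.47 and 0.56 and passed in the set of 12 after quantile normalization (0.63) or median centring (0.60). Of the 5 FOXO and GSK3 genes, Foxo1 fell in the set of 6 (−0.70) and Foxo3 rose in the set of 12 (0.65). Among 6 adaptors only Crk, which links receptors to downstream GTPase signalling, passed, in the set of 12 (−0.58 and −0.69). After median centring it passed in the set of 6 too (−0.62). With the siRNAs against AHR, 0 of the 56 genes passed with limma for either sequence, and 29 with siAHR-2 and 19 with siAHR-5 had an unadjusted p under 0.05 (40.4% and 47.8% of all genes did).

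Over the 18 libraries, each value taken minus the mean of its set, Igfbp5 followed Irs2 (Pearson r = 0.953) and Igf1 (0.95), and Igfbp6 ran against Irs2 (−0.88). Irs1 followed no other of the 9 genes closely, with its highest r at 0.622 for Igfbp5. Among 10716 genes with a mean of at least 5, those most like Irs2 were Elf4 (0.996) and Naa60 (0.994), those most like Igfbp5 were Tln1 (0.988) and Crim1 (0.985), and those most like Igfbp6 were Arhgef25 (0.992) and Hoxb8 (0.989). Igf1 was most like Tnnt3 and Caps2 (0.969 each), Igfbp4 like Maff (0.965) and Ubb (0.964), and Igfbp2 like Col6a4 (0.938) and Fam184b (0.937). Insr was most like Nsd1 (0.961) and Camk1d (0.948), Igf1r like Tnrc6a (0.937) and Kif13a (0.928), and Irs1 like Phf2 (0.926) and Camkk2 (0.876). These values share the libraries and the group differences and describe likeness only.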

How the data were processed

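RNA-seq of 18 libraries in 6 groups of 3 was used. Group and replicate number came from the sample labels, and columns were matched by the names given there. The authors aligned reads to rn6 with HISAT2 2.1.0, removed genes under 10 total reads, normalized with DESeq2 and deposited log2 values, without pooling replicates. The counter and annotation are not given in the sources used here. Although named as log CPM, the values of a library sum off the log scale to 86.3 to 160.8 times a CPM total. The transformation is unknown, so whether changes of low genes are shrunk is unknown, and no depth can be given.

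Groups were compared within a set with limma 3.58.1 in R 4.3.3 (eBayes with trend) on the log2 values of 13188 genes, with Benjamini-Hochberg adjustment over all of them. Fits were tested on simulated data. The difference of MYC effects was an interaction over 12 libraries. Members, gene lists and tests were chosen with earlier results of these data known. All 9 members in the table are named; of the pathway list, up to 2 genes per role and comparison with the largest change among those called without overlap, apart from Igf2r and Insrr, which were named as receptors. Stc1, Pappa, Pik3r1, Rps6kb1 and Socs1 were added outside this rule, after their values were seen. One gene that this rule would name is not reported here. Genes most like a member are the 2 with the highest Pearson r. Other settings tried were an adjusted p below 0.05 alone, a joint fit of the 18 libraries, eBayes without trend, quantile normalization, median centring, genes with a mean value of at least 1, adding a pseudocount of 1, a block for replicate number, and each library left out in turn. Promoter sequences are RefSeq (GRCr8). Figures used matplotlib 3.10.9.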

Additional observations from a re-analysis of the deposited data

Results flagged for a closer look

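The MYC effect on Igfbp6 differed between the sets of libraries, by −0.84 on the log2 scale (set of 12 minus set of 6, SE 0.0760, limma adjusted p = 2.53e-07). Igfbp6 was higher with MYC in 3 of 3 libraries of each set, by 1.21 in the set of 6 and by 0.37 in the set of 12. With each of the 12 libraries left out in turn, the difference stayed between −0.89 and −0.79. The transfection label runs with MYC in opposite ways in the 2 sets, and its part in the difference was not tested.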

How the results depend on the processing

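With an adjusted p below 0.05 alone, limma called 7 of the 9 genes, 48 other pathway genes and 10051 of all genes for MYC in the set of 6. The counts were 6, 37 and 8538 for MYC in the set of 12, 5, 30 and 7235 for the difference of MYC effects, 3, 21 and 3860 for siAHR-2, 3, 17 and 5169 for siAHR-5, and 3, 31 and 5151 between the siRNAs. The cutoffs of the text gave 3538, 3361, 2171, 62, 307 and 287 of all genes. A joint fit of all 18 libraries called 1 other pathway gene with siAHR-5, and put Irs1 past the cutoffs with MYC in the set of 12 (limma adjusted p = 3.09e-05), as did keeping genes with a mean of at least 1 (0.00895). Whether replicate numbers pair the samples could not be settled with 3 libraries per group. Deviations of same-numbered samples from their group means correlated at −0.256 to 0.242. With a replicate block the counts among the 9 genes stayed 3, 2, 1, 0, 0 and 0 in the order given first, and the siAHR-2 count of all genes was 0 with limma, with 5030 genes at an unadjusted p under 0.05. The cause was not tested.

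The share of higher genes among all genes called moved from 46.7% to 51.7% (quantile normalization) and 42.2% (median centring) with MYC in the set of 6, from 42.4% to 52% (quantile normalization) with MYC in the set of 12, from 63.5% to 50.2% (quantile normalization) and 45.9% (median centring) with siAHR-5, from 33.9% to 22.1% (median centring) with siAHR-2, and from 41.3% to 52.6% (median centring) for the difference of MYC effects. Called directions among the 9 genes did not change with scaling.

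The direction of log2FC changed in 26 fits of the 9 genes, with sizes up to 0.141 and limma adjusted p of 0.0673 or more, none of them called. Quantile normalization turned Igfbp2 with siAHR-2 (−0.017) and Igf1r (0.023) and Igfbp5 (−0.11) with siAHR-5. Median centring turned Igfbp2 with siAHR-2 (−0.031), Igfbp2 (−0.023), Igfbp4 (−0.017) and Igfbp5 (−0.022) with siAHR-5, and Igf1 (−0.000604) and Insr (−0.014) between the siRNAs. Leaving out each library in turn gave 2 to 4 of the 9 genes past the cutoffs with MYC in the set of 12, 1 to 3 for the difference of MYC effects, and 0 to 1 other pathway genes between the siRNAs. It gave log2FC ranges across 0 for Igfbp2 (−0.00037 to 0.00021) and Igfbp5 (−0.11 to 0.018) with siAHR-2, for Igf1r (−0.046 to 0.016), Insr (−0.048 to 0.028) and Igfbp5 (−0.023 to 0.077) with siAHR-5, for Insr (−0.14 to 0.19) and Irs2 (−0.026 to 0.11) in the difference of MYC effects, and for Irs1 (−0.086 to 0.038), Igf1 (−0.00010 to 0.045) and Insr (−0.0096 to 0.060) between the siRNAs. The cause was not tested. Of the other values, 756 kept their direction and their side of the cutoffs and 28 passed only under the alternative. Depth is unknown, so precision rests on the 3 libraries of each group.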
